A study of Mus musculus with 9 samples.

Results

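The kinesins are motor proteins that bind microtubules and spend ATP, either to walk along them with a cargo or to take their ends apart. Some of them work mainly in dividing cells, where they separate the spindle poles, move and align chromosomes, and bundle the microtubules between the separating chromosomes so that the cell can cleave. Others carry organelles, vesicles and proteins through the cytoplasm, the axon or the cilium in cells of any kind, dividing or not. Here every probe-set whose mouse gene symbol is Kif or Kifc followed by a number and at most a letter and a further digit was taken, which gave 103 of the 45101 probe-sets on the array and 40 of 18194 genes. The family was split by name into 11 mitotic kinesins with 24 probe-sets (Kif2c, Kif4, Kif11, Kif14, Kif15, Kif18a, Kif20a, Kif20b, Kif22, Kif23 and Kifc1) and 29 other kinesins with 79 probe-sets.

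RNA came from primary mouse embryo fibroblasts (MEFs), which were isolated from embryos of day 13.5 on a mixed C57BL/6J x 129Sv/J background, grown in medium with serum, and given no treatment. There were 3 arrays each of Tgif1 null (Tgif1 -/-) MEFs at passage 3 (null P3), wild type MEFs at passage 5 (WT P5) and wild type MEFs at passage 3 (WT P3), from independent cultures as the methods describe. Tgif1 encodes a transcriptional repressor that limits TGFβ responses, and the study asked how expression differs with its loss and with passage in culture. The null comes as whole primary cultures of mixed cell content, at passage 3 only, so that the effects of genotype and passage are each measured against the same 3 WT P3 arrays.

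The targeted gene followed the labels. Tgif1 had a log2 signal of 2.48, 3.21 and 2.496 on the null P3 arrays, against 10.06, 10.07 and 10.18 in WT P5 and 9.82, 9.95 and 9.72 in WT P3. The deposited values are log2 signals, and the lowest value on every array was 2.229. Replicate arrays correlated at 0.996 to 0.999 across probe-sets. Markers of other cells differed between groups: 6 of 8 striated muscle markers rose in the null and 3 of 8 fell in WT P5, each relative to WT P3, and their median shift over the 4 genes with a mean signal above 4 was 2.07 to 2.82 on the null P3 arrays, -2.22 to -2.13 on the WT P5 arrays and -0.10 to 0.02 on the WT P3 arrays. The macrophage protease Ctss also rose in the null, as the only 1 of 8 macrophage markers, whose median shift over the 5 above 4 was 0.79 to 0.93 on the null P3 arrays, -0.02 to 0.03 on the WT P5 arrays and -0.03 to 0.03 on the WT P3 arrays. Myod1 and Itgam, which define muscle precursors and macrophages, stayed at the lowest value on all 9 arrays. The epithelial keratin Krt18, the only 1 of 4 epithelial markers above 4, was at 6.13, 6.08 and 6.53 in WT P5, against 8.98, 9.01 and 8.73 in WT P3, and fell by 2.66, while null P3 was 2.67 above WT P5. Of 8 neuron markers, Map2 rose by 1.07 and Nefm fell by 1.08 in WT P5 relative to WT P3. All 8 fibroblast markers had a mean signal above 4. Of these, 1 fell in null P3 and 1 rose in WT P5 relative to WT P3 (median differences of the 8 -0.02 and 0.21). Relative to WT P5, 2 fell in null P3 (median -0.27). These marker counts are to be read against the shares of all genes. Of all genes, 1.51% rose and 1.07% fell in null P3 relative to WT P3. In WT P5 relative to WT P3, 6.13% rose and 7.11% fell, and 5.33% fell in null P3 relative to WT P5. In whole cultures, fewer dividing cells and less RNA per dividing cell cannot be told apart, and whether these other cells had a part in the kinesin values was not tested.

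A gene was represented by its brightest probe-set, and a gene is said to rise or fall only where limma's moderated test of that comparison gave a Benjamini-Hochberg adjusted p under 0.05 over all 45101 probe-sets. A mean log2 signal of 4, a line drawn after the data had been seen, separates genes with a usable signal from those near the lowest value. Above it were 9 of the 11 mitotic and 18 of the 29 other kinesins. Kif14, a motor of the midbody, and Kif15, which helps to hold spindle poles apart, have 1 probe-set each, and both lay between 2.229 and 2.291 on all 9 arrays, so that these probe-sets can show no decrease. Of the other kinesins, Kif12, Kif17, Kif21b, Kif26a, Kif27, Kif28, Kif2b, Kif5a, Kif6, Kif9 and Kifc2 lay below the line. The 3 arrays per group limit the precision, and an exact permutation test of 3 against 3 cannot give a two-sided p below 0.1.

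With passage of wild type MEFs, the mitotic kinesins fell as a group. In WT P5 relative to WT P3, 8 of 11 mitotic kinesins fell and 0 rose, by 0.59 to 0.92 on the log2 scale, while over all 18194 genes 7.11% fell and over the 9931 genes above the signal line 12.8% did. The median difference of the 9 mitotic kinesins above the line was -0.73, against -0.03 for all genes above it. For 8 of these 9 the WT P5 arrays did not overlap with the WT P3 arrays and lay below them, compared with 28.5% of all genes above the line. Only Kif18a among the 9 did not pass. Counted by probe-set, 16 of the 103 kinesin probe-sets were called in WT P5 against WT P3, 2 in null P3 against WT P3 and 11 in null P3 against WT P5, while 8.62%, 1.59% and 7.22% of all probe-sets were called in these comparisons.

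Of the motors of the central spindle, Kif23 is the kinesin subunit of centralspindlin, the complex that bundles midzone microtubules and calls in the cleavage furrow. Its log2 signal was 8.81, 8.73 and 8.81 in WT P5, against 9.51, 9.56 and 9.47 in WT P3. The groups were well apart, and Kif23 fell by 0.73 (SE 0.07, adjusted p = 0.00321), to 1.66-fold lower in WT P5. Kif20a, which carries the Aurora B kinase complex to the midzone, was at 9.53, 9.36 and 9.51 in WT P5, against 10.00, 10.21 and 9.94 in WT P3. It fell by 0.59 (SE 0.09, adjusted p = 0.0111). Kif20b, a motor of late cytokinesis, was at 7.92, 7.63 and 7.97 in WT P5, against 8.53, 8.91 and 8.62 in WT P3. Every WT P5 array was below every WT P3 array, and Kif20b fell by 0.85 (SE 0.13, adjusted p = 0.0138).

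The motors that sit on chromosomes fell too. Kif4 condenses and aligns chromosomes and then limits the length of midzone microtubules. Its signal was 7.0004, 6.87 and 6.93 in WT P5, against 7.94, 7.95 and 7.65 in WT P3, and it fell by 0.92 (SE 0.12, adjusted p = 0.00664). This was the largest decrease among the mitotic kinesins, to 1.89-fold lower in WT P5. Kif22, which pushes chromosome arms towards the metaphase plate, gave 8.82, 8.67 and 8.74 in WT P5, against 9.33, 9.51 and 9.48 in WT P3. It fell by 0.69 (SE 0.09, adjusted p = 0.00787), and its other probe-sets, 1451128_s_at and 1423813_at, fell by 0.96 and by 0.94.

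Among the motors that build the spindle, Kif11 slides antiparallel microtubules apart and so separates the poles. Its signal was 8.37, 8.23 and 8.21 in WT P5, against 8.93, 8.90 and 8.80 in WT P3, and it fell by 0.61 (SE 0.08, adjusted p = 0.00817). A dimmer Kif11 probe-set, 1452314_at, fell by 0.93. Kifc1 moves the other way along microtubules and focuses the poles. It was at 8.49, 8.63 and 8.72 in WT P5, against 9.42, 9.21 and 9.48 in WT P3, and fell by 0.76 (SE 0.10, adjusted p = 0.00729). The probe-set of Kifc1 is of a type that can match several transcripts, and a near-identical mouse gene, Kifc5b, may share its signal.

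The kinesins that take microtubule ends apart did not all pass. Kif2c, which corrects faulty attachments at centromeres, was at 8.46, 8.09 and 8.19 in WT P5, against 9.004, 8.996 and 9.11 in WT P3. It fell by 0.79 (SE 0.09, adjusted p = 0.00505), but its dimmer probe-set 1449060_at, with a difference of -0.53, did not pass (adjusted p = 0.149). Kif18a, which dampens chromosome movements at the metaphase plate, was at 6.26, 6.06 and 6.26 in WT P5, against 6.30, 6.81 and 6.18 in WT P3. These groups overlapped, and the difference of -0.24 (95% interval -1.02 to 0.54, adjusted p = 0.932) leaves room for a decrease as large as that of Kif4. In the same way the dim Kif23 probe-set 1453748_a_at, with a difference of -0.31, did not pass (adjusted p = 0.895).

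**Figure D1:**
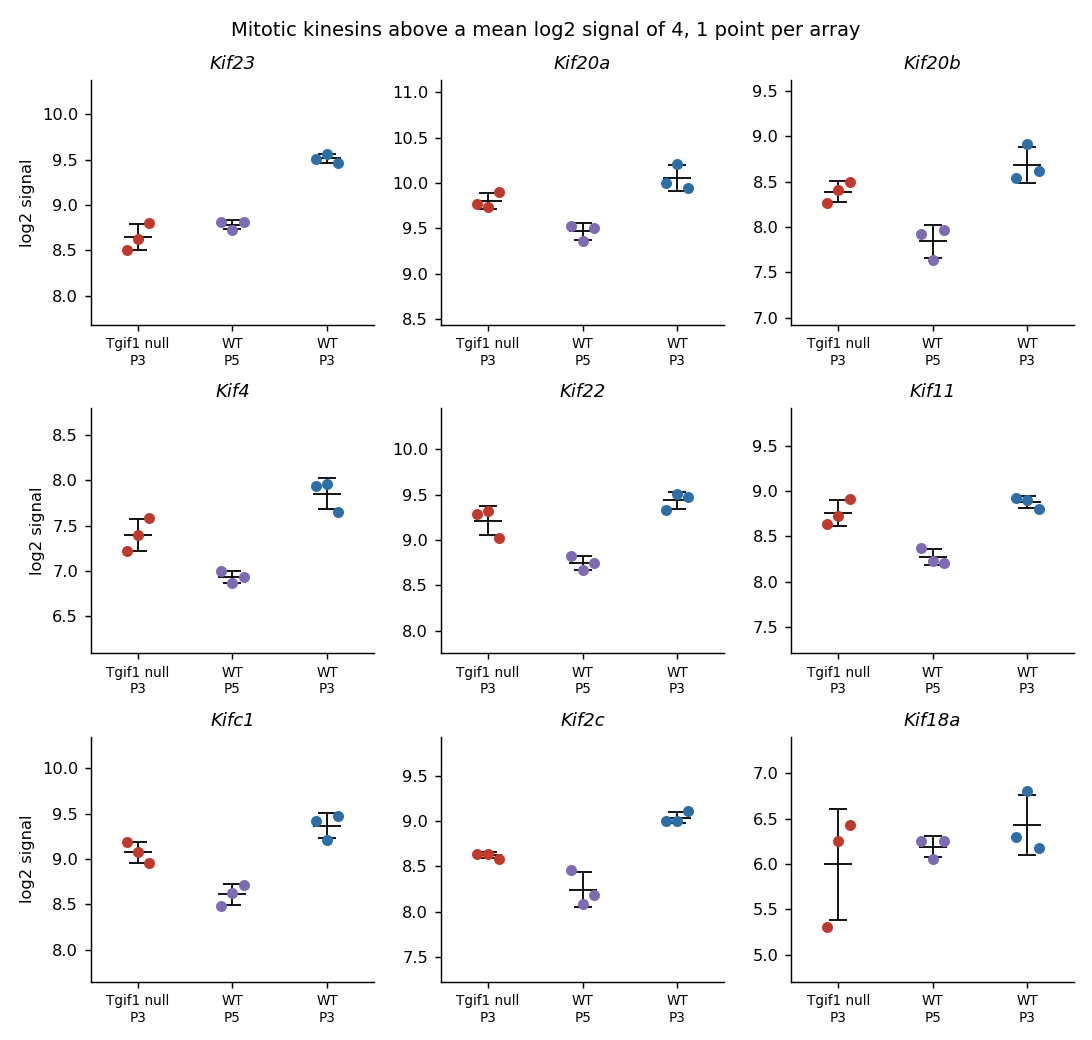
Log2 signal of the 9 mitotic kinesins with a mean signal above 4 on each array (points, n = 3 per group), with the group mean (long bar) and SD (short bars). Vertical axes differ between panels. In 8 panels, all but Kif18a, the WT P5 points lie below all WT P3 points, while in the Kif23 panel the null P3 points are as low as those of WT P5.

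In the Tgif1 null at passage 3, all 9 of these mitotic kinesins were also lower than in WT P3, but by less, and only Kif23 passed the test. Of the 11 mitotic kinesins 1 fell and 0 rose (5 had an unadjusted p under 0.05) in null P3 relative to WT P3, while 1.07% of all genes and 1.91% of those above the signal line fell. An unadjusted p under 0.05 was found for 2773 of all 18194 genes and for 2606 of the 9931 above the line. The median difference of the 9 was -0.30, against -0.01 for all genes above the line. For 7 of the 9, all but Kif11 and Kif18a, the null P3 arrays did not overlap with WT P3 and lay below, against 13.5% of all genes above the line. Counts and medians over the family are a description, since members are not replicates of a condition.

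Kif23 had the largest difference of the mitotic kinesins in the null. Its signal was 8.51, 8.63 and 8.80 in null P3, against 9.51, 9.56 and 9.47 in WT P3. All null P3 arrays lay far below all WT P3 arrays, and Kif23 fell by 0.87 (SE 0.07, adjusted p = 0.00782), to 1.82-fold lower in null P3. The call was kept without any one of the 9 arrays, but not with the 6 arrays of these groups alone (adjusted p = 0.0684), nor where limma's prior variance was given a trend with intensity and made robust to outlying probe-sets (adjusted p = 0.0806). With the mean of all Kif23 probe-sets the difference was -0.54 (adjusted p = 0.14) in the null and -0.35 (adjusted p = 0.211) in WT P5, both against WT P3. With a pairwise unadjusted p under 0.0001 and a log2 difference of at least 0.5, as the study's methods word their selection, the brightest Kif23 probe-set was selected in both comparisons with WT P3, and so were the Kif22 probe-sets 1423813_at and 1451128_s_at in WT P5. No other kinesin probe-set was selected, while 0.395% of all probe-sets were selected in null P3, 1.74% in WT P5 and 1.6% between null P3 and WT P5. With a p under 0.0001 of the F test across the 3 groups in place of the pairwise one, Kif23 was again selected in both, as were 0.94% of all genes in null P3 and 2.46% in WT P5, and 2.35% of genes but 0 kinesins were selected between null P3 and WT P5. There, 7 of 11 mitotic and 8 of 29 other kinesins had an unadjusted p under 0.05 in limma's moderated test. So did 4683 of all 18194 genes and 4365 of the 9931 above the line. The share of the other kinesins was near that of all genes.

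The other central spindle and chromosome motors differed in the same direction with no call in the main fit. Kif4 was at 7.22, 7.39 and 7.58 in null P3, all below the WT P3 arrays, with a difference of -0.45 (SE 0.12, adjusted p = 0.174). Kif20b was at 8.27, 8.404 and 8.50 (difference -0.30, adjusted p = 0.558) and Kif20a at 9.77, 9.73 and 9.90 in null P3 (difference -0.25, adjusted p = 0.355), again below every WT P3 array. Kif22 was at 9.29, 9.32 and 9.03 in null P3 (difference -0.22, adjusted p = 0.494), with its highest array just under the lowest of WT P3. Its probe-set 1451128_s_at differed by -0.45 and passed with a filter on low signal (adjusted p = 0.0344), but not in the main fit. With the mean of all Kif22 probe-sets the difference was -0.34 (adjusted p = 0.0289).

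Of the spindle builders and depolymerases, Kif2c was the closest to a call in the null, at 8.64, 8.64 and 8.59 in null P3 (difference -0.41, SE 0.09, adjusted p = 0.119). Without WT P5 replicate 1 its adjusted p was 0.0344. Kifc1 was at 9.19, 9.08 and 8.96 in null P3, with a difference of -0.29 (adjusted p = 0.335). By its brightest probe-set Kif11 differed least, at 8.64, 8.72 and 8.91 in null P3, where its highest array was within the WT P3 range (difference -0.12, 95% interval -0.32 to 0.08, adjusted p = 0.768). Its dimmer probe-set 1452314_at was at 7.22, 7.16 and 7.49 in null P3, against 7.64, 7.80 and 7.57 in WT P3, with no overlap and a difference of -0.38 (adjusted p = 0.253). The widest spread was that of Kif18a, at 5.30, 6.26 and 6.43 in null P3, where replicate 1 alone lay below WT P3, and its difference of -0.43 was not called (adjusted p = 0.768).

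Set side by side, null P3 lay between WT P5 and WT P3 in mean signal for 7 of the 9 mitotic kinesins, the exceptions being Kif23 and Kif18a. In the direct comparison of null P3 with WT P5, 3 of 11 mitotic kinesins were called, all higher in the null, while 6.08% of all genes and 10.7% of those above the line rose and 5.33% of all genes fell. Kif11 was higher in null P3 by 0.49 (SE 0.08, adjusted p = 0.0199), Kif22 by 0.47 (SE 0.09, adjusted p = 0.0344) and Kifc1 by 0.46 (SE 0.10, adjusted p = 0.0445). Kif20a, Kif20b, Kif2c and Kif4 were higher by 0.34 to 0.55, but did not pass. For 7 of the 9 all null P3 arrays lay above all WT P5 arrays, against 29.1% of genes above the line. Kif23 and Kif18a lay the other way. Kif23 had 8.65 ± 0.15 in null P3 and 8.78 ± 0.05 in WT P5 (SD, n = 3 each), a difference of -0.14 (95% interval -0.32 to 0.05, adjusted p = 0.482), and Kif18a differed by -0.19 (adjusted p = 1). These calls were close to the threshold: none of the 3 was kept without null replicate 2, WT P5 replicate 2 or WT P5 replicate 3, where 0 were called in each case, and 1 was called without null replicate 1, WT P3 replicate 1 or WT P3 replicate 3. In comparisons of null P3 and of WT P5 with the same WT P3 arrays, a shift of those arrays moves both differences alike, so likeness between them is given here only as values.

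**Figure D2:**
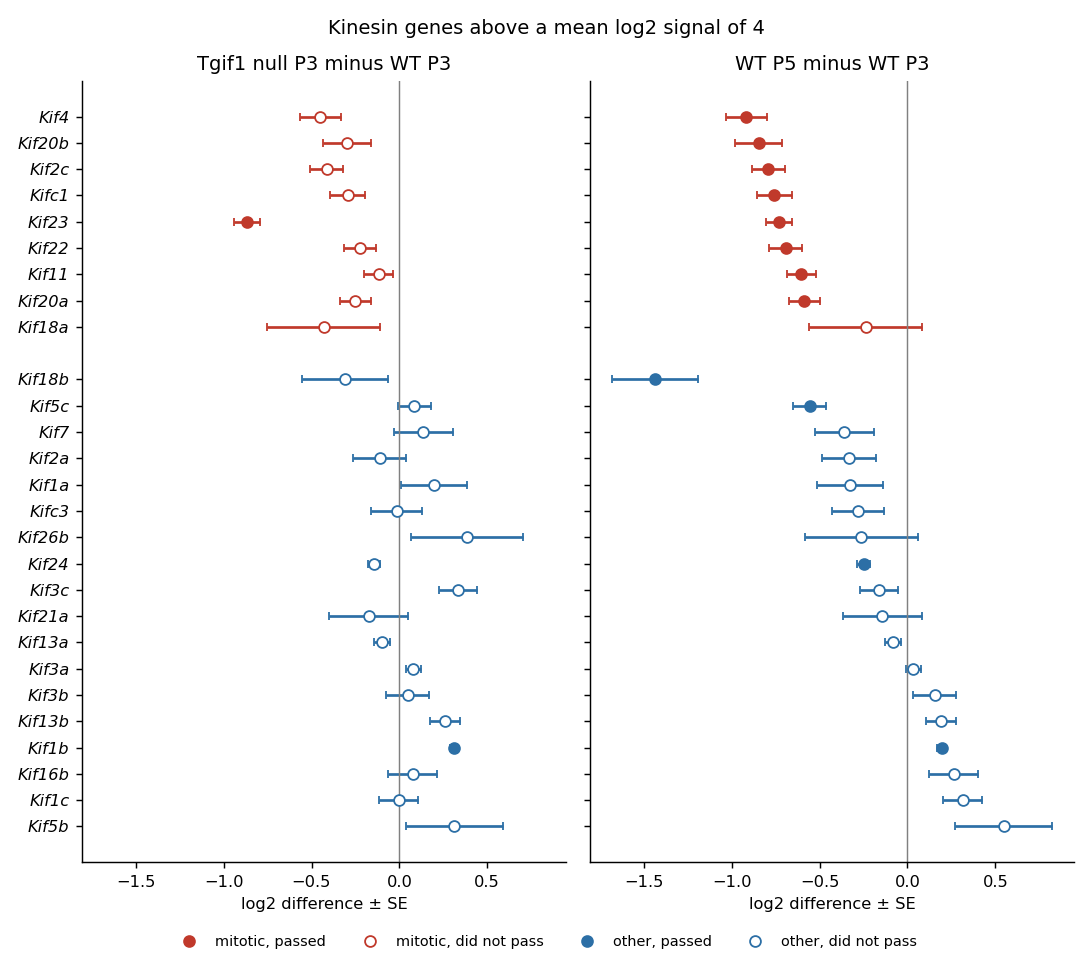
Log2 difference from WT P3 (± SE of the fit, 9 arrays) of the 27 kinesins with a mean log2 signal above 4, with null P3 minus WT P3 on the left and WT P5 minus WT P3 on the right. Filled points passed the test at an adjusted p under 0.05. The mitotic kinesins (red) lie between -0.92 and -0.24 on the right and between -0.87 and -0.12 on the left, whereas the other kinesins (blue) lie on both sides of 0.

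The promoters of the mitotic kinesins were read because the genes were lower together. Genes that peak in mitosis often carry a cell cycle homology region (CHR), with the core TTTGAA or TTCGAA, close to the start of transcription, frequently with an upstream CCAAT box, and are bound there by the DREAM and MuvB complexes. RefSeq promoters, 250 bases before to 50 bases after the start in build GRCm38.p6, were at hand for 10 of the 11 mitotic and 22 of the 29 other kinesins. The CHR core was searched on both strands and was found in 9 of the 10 mitotic promoters, all but that of Kif18a. It was found in 5 of 22 promoters of other kinesins (22.7%) and in 17.5% of the 14453 genes named on the array with a promoter. Within 30 bases of the start, a distance chosen after the promoters had been seen, it was found for 7 of 10 mitotic kinesins, for 3 of 22 other kinesins (Kif18b, Kif24 and Kif26b), and for 2.77% of the genes named on the array.

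The CCAAT box, on either strand, was in 6 of 10 mitotic promoters, in 40.9% of those of other kinesins and in 42% of genes named on the array. The E2F core (TTGGCGC or TTCCCGC or TTGCCGC or TTCGCGC, on either strand) was in 2 of 10 mitotic promoters, those of Kif15 and Kif18a, and in 16% of genes named on the array. A CCAAT box read on the other strand (ATTGG) can share TTGG with the first E2F core. A match is a string of letters and no evidence that a factor binds. The windows from 70 bases before to 30 bases after the start are given for the 6 mitotic kinesins above the signal line with a CHR core near the start, which share it, and for Kif18b, the other kinesin that fell most. Sequences run 5′ to 3′ on the strand of the gene, from RefSeq, build GRCm38.p6, with the CHR core (TTTGAA or its complement TTCAAA) and the CCAAT box (CCAAT or its complement ATTGG) in capitals.
Kif23, chr9:61946770-61946869, minus strand: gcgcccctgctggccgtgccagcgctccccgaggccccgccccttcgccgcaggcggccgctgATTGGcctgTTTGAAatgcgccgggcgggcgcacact
Kif20b, chr19:34922288-34922387, plus strand: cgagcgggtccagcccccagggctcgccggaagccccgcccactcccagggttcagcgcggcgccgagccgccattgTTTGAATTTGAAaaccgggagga
Kif4, chrX:100625995-100626094, plus strand: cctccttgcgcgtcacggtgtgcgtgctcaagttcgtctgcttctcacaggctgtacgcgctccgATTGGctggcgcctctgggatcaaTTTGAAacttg
Kif22, chr7:127042391-127042490, minus strand: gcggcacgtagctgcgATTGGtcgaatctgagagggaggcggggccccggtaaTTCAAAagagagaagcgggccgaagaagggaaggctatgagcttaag
Kif11, chr19:37376312-37376411, plus strand: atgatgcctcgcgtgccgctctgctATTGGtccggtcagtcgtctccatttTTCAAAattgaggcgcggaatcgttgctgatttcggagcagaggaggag
Kifc1, chr17:33890604-33890703, minus strand: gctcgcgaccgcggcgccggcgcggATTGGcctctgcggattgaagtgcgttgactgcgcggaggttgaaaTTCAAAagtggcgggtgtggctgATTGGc
Kif18b, chr11:102925095-102925194, minus strand: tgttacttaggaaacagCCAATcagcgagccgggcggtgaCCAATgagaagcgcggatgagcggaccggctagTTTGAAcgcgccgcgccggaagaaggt
Counted from 1 at the start of transcription, with negative positions before it, the CHR core begins at 3 in Kif23, 20 in Kif4, 2 in Kifc1, 4 in Kif18b, -17 in Kif22 and -19 in Kif11, and Kif20b holds a pair of cores in a row, at 8 and 14. All but Kif20b also have a CCAAT box in the window.

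**Figure D3:**
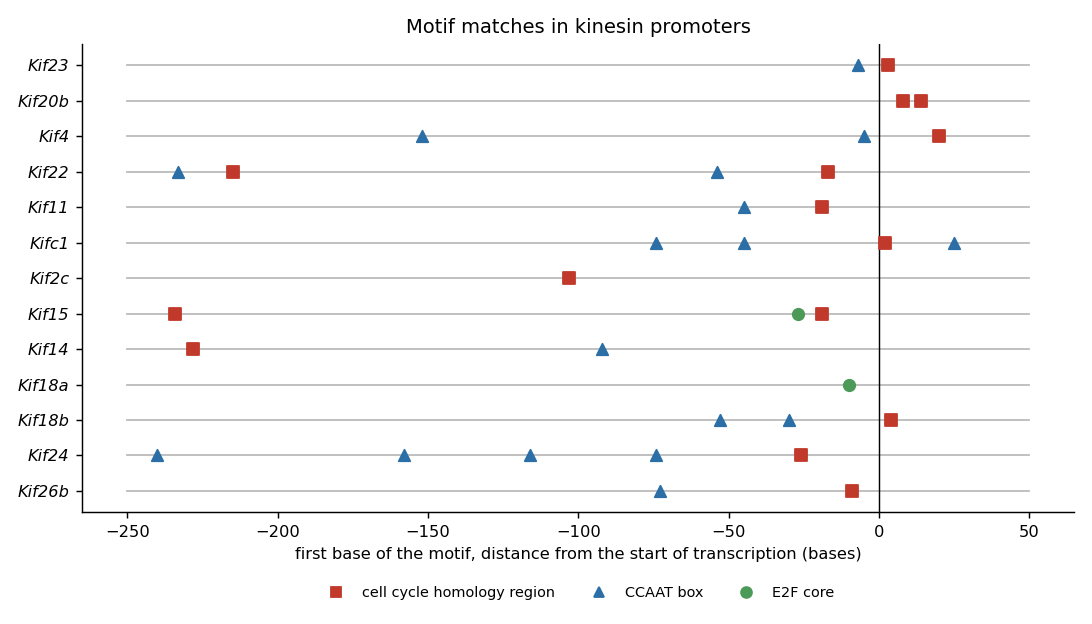
Position of the first base of each CHR core (squares), CCAAT box (triangles) and E2F core (circles) relative to the start of transcription, in bases, for the 10 mitotic kinesins with a RefSeq promoter and the 3 other kinesins with a CHR core within 30 bases of the start. In 7 of the 10 mitotic promoters a square lies within 30 bases of the start (vertical line).

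Among the 29 other kinesins, 3 fell and 1 rose in WT P5 relative to WT P3, where 7.11% of all genes fell and 6.13% rose, so that these shares were near those of all genes. The median difference of the 18 other kinesins above the signal line was -0.15. Kif18b, a regulator of astral microtubule length in mitosis that the split by name places among the other kinesins, had the largest difference of the 27 kinesins above the line. Its log2 signal was 5.67, 5.98 and 6.05 in WT P5, against 7.401, 6.94 and 7.66 in WT P3, and it fell by 1.43 (SE 0.24, adjusted p = 0.0179), to 2.70-fold lower in WT P5. This call was lost without WT P3 replicate 1 (adjusted p = 0.0716), WT P3 replicate 3 (0.0578), WT P5 replicate 1 (0.0683) or WT P5 replicate 2 (0.0629). In null P3 Kif18b was at 7.401, 6.78 and 6.89, which overlaps with WT P3 (difference -0.31, adjusted p = 0.768) and is higher than WT P5 by 1.13 (SE 0.24, adjusted p = 0.046). The last call was lost with any 1 array left out other than WT P3 replicate 2 (adjusted p of 0.0545 to 0.154).

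Kif24, a motor of the mother centriole that in human cells holds back the growth of cilia, was dim, at 4.23, 4.24 and 4.34 in WT P5, against 4.50, 4.57 and 4.49 in WT P3. It fell by 0.25 (SE 0.03, adjusted p = 0.00888), a small shift judged against a small spread, and under limma's trended, robust prior variance it did not pass (adjusted p = 0.424). All 3 null P3 arrays gave 4.38, between both wild type groups. Kif5c, a heavy chain of conventional kinesin best known from neurons, was at 7.33, 7.23 and 7.56 in WT P5, against 7.95, 7.97 and 7.87 in WT P3. It fell by 0.56 (SE 0.09, adjusted p = 0.0155), a call lost without WT P3 replicate 1 (adjusted p = 0.0643) or WT P5 replicate 1 (0.0634). Null P3, at 8.11, 7.92 and 8.03, did not differ from WT P3 by a called amount (difference 0.09, adjusted p = 0.899) and was higher than WT P5 by 0.64 (SE 0.09, adjusted p = 0.0108).

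Kif1b, which moves mitochondria and vesicle precursors, was the only kinesin that rose in both comparisons with WT P3. It was at 10.02, 10.00 and 9.99 in null P3, at 9.93, 9.88 and 9.84 in WT P5, and at 9.70, 9.67 and 9.70 in WT P3. None of the 3 groups overlapped with another. The increase was 0.31 in null P3 (SE 0.02, adjusted p = 0.00522), 1.24-fold, and 0.19 in WT P5 (SE 0.02, adjusted p = 0.00542), 1.14-fold, while 1.51% of all genes rose in null P3 and 6.13% in WT P5. It rests on 1 of the 7 Kif1b probe-sets above the signal line: none of the other 6 passed in any comparison. With the mean of all its probe-sets the adjusted p was 0.313 in null P3 and 0.416 in WT P5.

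**Figure D4:**
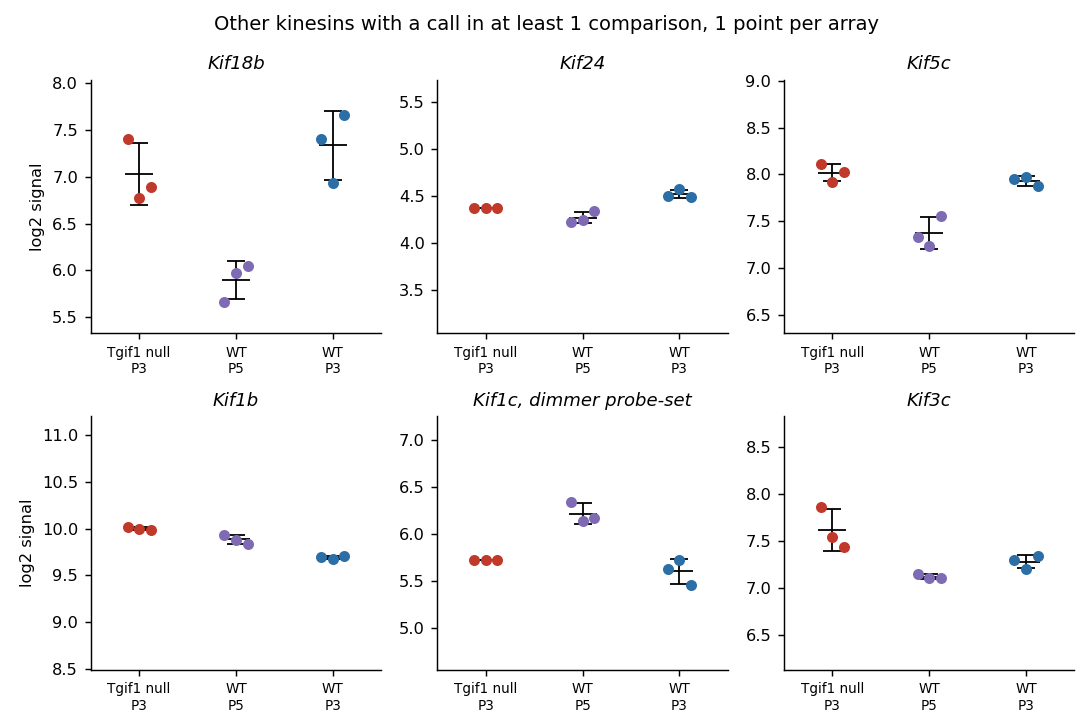
Log2 signal on each array (points, n = 3 per group), with group mean and SD (bars), of the other kinesins with a call in at least 1 comparison, including a dimmer probe-set of Kif1c. Kif18b, Kif24 and Kif5c are lowest in WT P5, Kif1b is highest in null P3, and the Kif1c probe-set is highest in WT P5.

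Of the other kinesins, those with the strongest signals were Kif5b, Kif1c, Kif1b, Kif2a and Kif3a. In WT P5 all but Kif2a had a higher mean than in WT P3, but by the brightest probe-set only Kif1b, described above, passed. In null P3 the means of Kif1c and Kif2a were lower than in WT P3 and those of the rest higher. Kif5b, the heavy chain of conventional kinesin found in all cells, was at 11.40, 12.004 and 12.06 in null P3, at 12.14, 12.08 and 11.95 in WT P5, and at 11.31, 12.05 and 11.16 in WT P3. The wide spread within null P3 and WT P3 left differences of 0.31 in null P3 and 0.55 in WT P5 without a call (adjusted p = 0.796 and 0.397). Kif1c, a fast vesicle motor, was at 9.95, 10.18 and 10.13 in null P3, at 10.56, 10.41 and 10.25 in WT P5, and at 10.06, 9.98 and 10.24 in WT P3. All WT P5 arrays lay above all others, but the difference of 0.31 from WT P3 did not pass (adjusted p = 0.176), whereas the dimmer probe-set 1436224_at rose by 0.61 (SE 0.08, adjusted p = 0.00717). That probe-set gave 6.35, 6.13 and 6.17 in WT P5, against 5.63, 5.72 and 5.46 in WT P3.

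Kif2a, a depolymerase of spindle poles and growing axons, was at 9.49, 9.90 and 10.11 in null P3, at 9.63, 9.64 and 9.57 in WT P5, and at 10.05, 9.97 and 9.82 in WT P3. Every WT P5 array was lower than every WT P3 array, with a difference of -0.33 (adjusted p = 0.328). Kif3a, a kinesin-2 subunit that builds cilia, varied little, between 8.12 and 8.32 on all 9 arrays, with differences of 0.08 in null P3 and 0.03 in WT P5 from WT P3 (adjusted p = 0.721 and 0.899). Its partner Kif3c was at 7.86, 7.54 and 7.44 in null P3, at 7.15, 7.10 and 7.10 in WT P5, and at 7.30, 7.20 and 7.34 in WT P3. It was higher in null P3 than in WT P5 by 0.49 (SE 0.11, adjusted p = 0.0462), but with the mean of its probe-sets by 0.24 (adjusted p = 0.163). Its difference of 0.33 between null P3 and WT P3 did not pass (adjusted p = 0.297). Between null P3 and WT P5, 4 of the 29 other kinesins were called, Kif18b, Kif5c, Kif3c and Kif1b, all higher in the null, where 6.08% of all genes and 10.7% of those above the line rose. These calls were lost in 13, 4, 14 and 15 of 18 alternative settings. Counted by probe-set, Kif1c 1436224_at was called the other way, lower in null P3 than in WT P5 (difference -0.49). That call was lost in 7 of 17 settings. The remaining other kinesins above the line, Kif13a, Kif13b, Kif16b, Kif1a, Kif21a, Kif26b, Kif3b, Kif7 and Kifc3, passed in no comparison, with differences from WT P3 of -0.18 to 0.38 in null P3 and -0.36 to 0.26 in WT P5.

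The proteins that the mitotic kinesins work with were lower in the same groups. Of 12 genes of the central spindle and the chromosomal passengers, 10 fell and 0 rose in WT P5 relative to WT P3, and 3 fell and 0 rose in null P3 relative to WT P3. Of all genes above the line, 12.8% fell in WT P5 and 1.91% in null P3, against which this count and those of the spindle assembly and proliferation genes are to be read. Racgap1, the GTPase-activating partner of Kif23 in centralspindlin, was at 9.43, 9.28 and 9.18 in null P3, at 9.02, 8.86 and 9.01 in WT P5, and at 9.63, 9.61 and 9.63 in WT P3. It fell by 0.66 in WT P5 (adjusted p = 0.00402) and differed by -0.33 in null P3 (adjusted p = 0.112). Prc1, the bundler that recruits Kif4, fell by 0.78 in WT P5, and Incenp, the scaffold of the passenger complex that Kif20a carries, fell by 0.92. Incenp also fell in null P3, by 0.46 (adjusted p = 0.023), as did Cdca8, by 0.33 (adjusted p = 0.0393).

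Aurkb, the kinase of that complex, resembled Kif23 in that null P3 and WT P5 were alike. It was at 8.29, 8.28 and 8.18 in null P3, at 8.19, 7.98 and 8.24 in WT P5, and at 8.87, 8.98 and 8.79 in WT P3. Aurkb fell by 0.63 in null P3 (adjusted p = 0.0237) and by 0.74 in WT P5 (adjusted p = 0.00399), and null P3 minus WT P5 was 0.11 (adjusted p = 0.637). The calls of Aurkb, Incenp and Cdca8 in null P3 were lost in 12, 10 and 12 of 18 alternative settings.

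Cenpe, the kinetochore kinesin that lies outside the symbol rule, fell in WT P5 as well. It was at 7.84, 7.66 and 7.95 in WT P5, against 8.996, 9.13 and 8.94 in WT P3, and fell by 1.21 (SE 0.14, adjusted p = 0.00488). In null P3, at 8.37, 8.63 and 8.88, all arrays were below all WT P3 arrays (difference -0.40, adjusted p = 0.375). In WT P5 relative to WT P3, 1273 of the 9931 genes above the line fell and 1040 rose. Of the 13 measured motors and partners outside the rule, 1 fell and 3 rose in that comparison. These were Cenpe and, among those that rose, Kifap3, the cargo adaptor of kinesin-2, by 0.55 (adjusted p = 0.0435), Klc3, a kinesin light chain, by 0.66 (adjusted p = 0.0483), and Kifbp, a kinesin binding protein, by 0.30 (adjusted p = 0.0254). The calls of Kifap3, Klc3 and Kifbp were lost in 11, 13 and 9 of 18 alternative settings. In null P3 relative to WT P3, 0 of the 13 passed limma's test, and 4 had an unadjusted p under 0.05. Of the 9931 genes above the line, 190 fell, 259 rose and 2606 had an unadjusted p under 0.05 there.

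Of 14 spindle assembly genes, 10 fell and 0 rose in WT P5 and 2 fell and 0 rose in null P3, both against WT P3. Bub1b, a kinase of the spindle checkpoint, fell by 1.29 in WT P5 and by 0.69 in null P3, and Tacc3, which steadies spindle microtubules, fell by 0.92 in WT P5 and by 0.46 in null P3. The calls of Bub1b and Tacc3 in null P3 were lost in 12 and 10 of 18 alternative settings. Hmmr, a spindle pole protein, fell by 0.79 in WT P5 and was higher by 0.03 in null P3 (adjusted p = 0.997). Of 20 measured proliferation genes, 14 fell and 0 rose in WT P5 and 2 fell and 0 rose in null P3. Those in null P3 were Mcm5, a subunit of the replicative helicase, which fell by 0.55 in null P3 (adjusted p = 0.00821), and Ccnb2, a mitotic cyclin, which fell by 0.56 (adjusted p = 0.0123).

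The machinery of transport along microtubules in interphase was counted in the same way. Of the 9931 genes above the line, 1273 fell and 1040 rose in WT P5, and 190 fell and 259 rose in null P3, each against WT P3. An unadjusted p under 0.05 in null P3 was found for 2606 of them. Cytoplasmic dynein and dynactin, which move cargo towards the minus end, had 19 measured genes. Of these, 0 fell and 1 rose in WT P5 against WT P3 (Dynlt3, by 0.65, adjusted p = 0.0192). In null P3 against WT P3, 0 passed and 6 had an unadjusted p under 0.05. There 18 of the 19 were higher, with a median difference of 0.14. Above the line 17 of 18 were higher in null P3, as were 4761 of all 9931 genes. Of 14 measured tubulins 2 fell and 2 rose in WT P5, and 0 passed in null P3 (4 with an unadjusted p under 0.05), where 12.8% and 1.91% of all genes above the line fell. Tubg1, the γ-tubulin of microtubule nucleation, was among those that fell, by 0.42 (adjusted p = 0.00157). Of 16 intraflagellar transport genes, which serve the cilium with kinesin-2, 1 fell in each comparison with WT P3, and 13 were lower in null P3 than in WT P3, 7 of the 16 with an unadjusted p under 0.05. Above the line 12 of 15 were lower in null P3, as were 5167 of all 9931 genes. The gene that fell was Dync2h1, the heavy chain of the dynein of cilia, with a mean signal of 3.16, which fell by 0.45 in null P3 and by 0.39 in WT P5 and was singled out after its values were seen. The 15 above the signal line had median differences from WT P3 of -0.32 in null P3 and -0.024 in WT P5.

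Array by array, the median shift of the 9 mitotic kinesins from the WT P3 mean was -0.40, -0.29 and -0.27 on the null P3 arrays, -0.62, -0.76 and -0.69 on the WT P5 arrays, and -0.03, 0.07 and -0.07 on the WT P3 arrays. The 12 central spindle genes shifted by -0.40 to -0.39 on the null P3 arrays and by -0.90 to -0.75 on the WT P5 arrays, and the 19 proliferation genes by -0.40 to -0.22 and by -0.80 to -0.68 on the arrays of those groups. The 18 other kinesins shifted by 0.01 to 0.13 on the null P3 arrays, by -0.23 to -0.01 on the WT P5 arrays and by -0.07 to 0.02 on the WT P3 arrays. The 15 intraflagellar transport genes above the line shifted by -0.37 to -0.14 on the null P3 arrays, by -0.058 to 0.059 on the WT P5 arrays and by -0.040 to 0.032 on the WT P3 arrays. WT P5 replicate 2 was the lowest WT P5 array for 7 of the 9 mitotic kinesins, and no null or WT P3 array was the lowest of its group for more than 5.

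**Figure D5:**
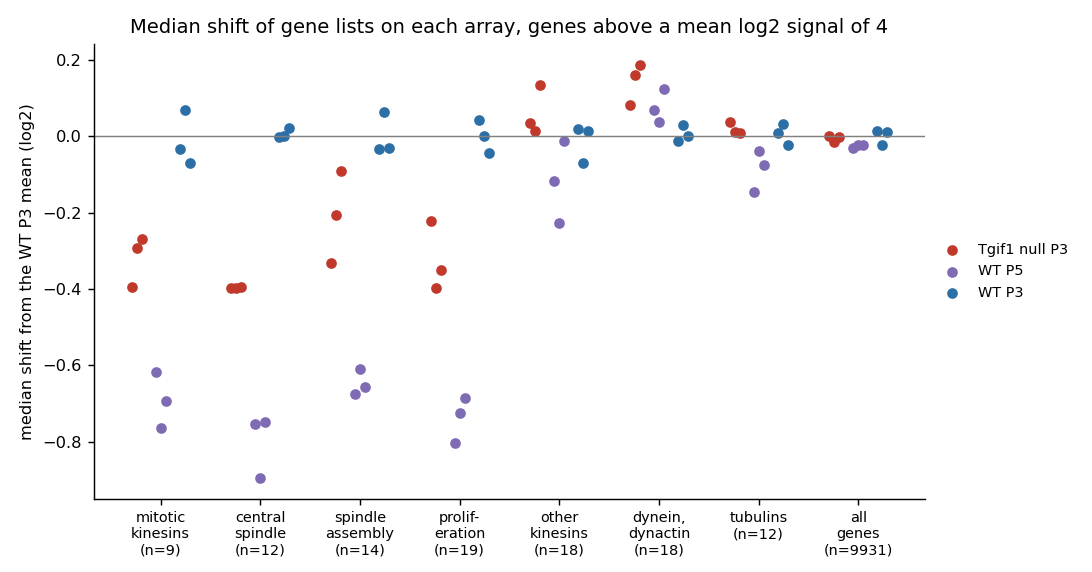
Median over genes of the log2 shift from the WT P3 mean, 1 point per array, for genes with a mean log2 signal above 4 in each list (n genes under each label). Mitotic kinesins, central spindle, spindle assembly and proliferation genes lie lowest on the WT P5 arrays and in between on the null P3 arrays, while dynein, tubulins and all genes stay within 0.2 of 0.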

How the data were processed

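RNA from 9 MEF cultures (3 each of Tgif1 null P3, WT P5 and WT P3) was measured on Affymetrix mouse arrays. The deposited values are log2 signals, summarised by the authors with GCRMA, which subtracts a background modelled from the probe sequence, normalizes arrays by quantiles and summarises probes. Many weak signals lie at or near the lowest value after this step, and a signal at that value can show no decrease. Whether differences of dim genes above it are understated was not tested. The submitters' notes also name limma, without a version in any source read here. Slides and scan dates were not analysed here.

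Symbols were found by gene number for 34958 probe-sets (932 matched several genes and 9211 none), and 1 probe-set that matches Kif27 and another gene was left out. A model of 3 group means over 9 arrays was fitted in limma 3.58.1 (R 4.3.3, lmFit and eBayes), after a test on simulated data. Its prior variance weighed little (0.345 degrees of freedom against 6). All kinesins are counted. Named are the mitotic ones, others with a call in any comparison, the 5 other kinesins with the strongest signal and up to 4 genes of each context list with the smallest p. The members, lists and motifs were chosen with earlier results of these data known. Promoters came from RefSeq (GRCm38.p6) and were searched in Python 3.11.15. Alternatives were a prior with trend and robust estimation, a filter on low signal, quantile normalization, median centring, a replicate block, 6 arrays alone, the mean of a gene's probe-sets, a log2 difference of at least 0.5 with an F test p under 0.0001 or, added after seeing the data, with a pairwise p under 0.0001 as in the study's methods, and each array left out.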

Additional observations from a re-analysis of the deposited data

How the results depend on the processing

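The decrease of the mitotic kinesins in WT P5 relative to WT P3 was the steadiest result. The count of 8 was 8 in all 9 fits with 1 array left out, with the filter and with both other normalizations, 7 with the 6 arrays alone, 6 with the trend and robust prior and 6 with the mean of probe-sets. The median of -0.73 lay between -0.74 and -0.70 without 1 array and was -0.54 with the mean of probe-sets. By an F test p under 0.0001 and a log2 difference of at least 0.5, the counts were 1 mitotic kinesin, 0 other kinesins and 1 probe-set in WT P5 against WT P3, 0 other kinesins and 1 probe-set in null P3 against WT P3, and 0 of each in null P3 against WT P5. With the pairwise p in place of the F test, an alternative added after seeing the data, they were the same except for 3 probe-sets in WT P5 against WT P3. In null P3 against WT P3, the trend and robust prior left 0 mitotic kinesins, 0 other kinesins and 0 probe-sets, the 6 arrays alone left 0 mitotic kinesins and 1 probe-set, and the mean of probe-sets left 0 other kinesins and Kif22 in place of Kif23. Over all probe-sets on the array, the calls there went from 717 to 59 with the trend and robust prior and to 123 with the 6 arrays alone. The filter on low signal, by which fewer probe-sets are tested, called 3 mitotic kinesins (Kif23, Kif2c and Kif4) and 5 probe-sets there, and 7 mitotic kinesins in null P3 against WT P5. With the filter the calls over all probe-sets rose from 717 to 1563 and from 3258 to 5246 in these comparisons.

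Null P3 against WT P5 was the least steady, with 3 mitotic, 4 other kinesins and 11 probe-sets called. With the trend and robust prior the counts were 0, 0 and 0, and with the 6 arrays alone 0, 0 and 1. Over all probe-sets, the calls went from 3258 to 1071 with that prior and to 2025 with the 6 arrays alone. Without 1 array the kinesin counts ranged between 0 and 4 mitotic kinesins, 1 and 3 other kinesins, and 3 and 12 probe-sets. The calls over all probe-sets then ranged between 1753 and 3343. The median of the mitotic kinesins, 0.46, was 0.34 with the mean of probe-sets. For WT P5 against WT P3, 16 probe-sets were called and 10 with the trend and robust prior, the 4 other kinesins became 1 with that prior and 2 to 5 without 1 array, and their median of -0.15 became -0.059 with the mean of probe-sets. Over all probe-sets on the array, the calls in WT P5 against WT P3 went from 3889 to 1297 with that prior. In null P3 against WT P3, the mitotic count was 1 to 2 and the median -0.38 to -0.24 without 1 array, and the median of the other kinesins, 0.08, was -0.0072 to 0.11. The cause of these changes was not tested.

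Same-numbered arrays of different groups did not regularly deviate together (correlations of their deviations between -0.49 and 0.40), so the numbers were not taken to pair cultures. Arrays of unlike number ranged more widely. The lowest was -0.61, for null P3 replicate 1 with WT P3 replicate 2, and the highest 0.63, for null P3 replicate 3 with WT P3 replicate 2. What these shared deviations reflect was not tested. With the replicate block the counts were 0 mitotic kinesins and 1 probe-set in null P3 against WT P3 (Kif23, adjusted p = 0.0606), 5 mitotic and 2 other kinesins in WT P5 against WT P3, and 0 mitotic kinesins, 1 other kinesin and 1 probe-set in null P3 against WT P5. Over all probe-sets, the block lowered the calls in these comparisons from 717 to 141, from 3889 to 2247 and from 3258 to 1763.

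Signs changed for differences near 0 that were never called. With the mean of probe-sets these were Kif5c (-0.0030), Kif1c (0.054) and Kif2a (0.020) in null P3 against WT P3, and Kif3a (-0.086) in null P3 against WT P5. Without 1 array, Kif1c ranged between -0.061 and 0.071 and Kif2a between -0.25 and 0.056 in null P3 against WT P3, Kif3a between -0.011 and 0.072 in WT P5 against WT P3, and Kif18a between -0.41 and 0.15 in null P3 against WT P5. Of the 1278 values of kinesin genes and probe-sets over all alternatives, these 9 changed sign. Calls were lost for 180 values and gained for 17. Only values called in the main fit can lose a call and most of the 1278 were not called there, so 180 is not to be read as a share of 1278.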
